A study of Mus musculus with 12 samples.

Results

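The mast cell proteases are the serine proteases and the carboxypeptidase that fill the secretory granules of mast cells. 9 of them were followed here through the symbols of the array annotation: the chymases Cma1, Cma2, Mcpt1, Mcpt2 and Mcpt4, the tryptases Tpsb2, Tpsab1 and Tpsg1, and the carboxypeptidase Cpa3. 13 of the 45281 probes of the array carried the symbol of 8 members, and none carried that of Tpsg1, which was not analysed here. The lungs came from 6 Foxf1+/- mice and 6 wildtype littermates, all whole lungs taken at postnatal day 0.5 from a mixed background of the 129 and C57BL6/J strains, with 1 lung per Illumina MouseWG-6 bead array. The Foxf1+/- pups carried a null allele of Foxf1, a forkhead transcription factor of lung mesenchyme and endothelium, in which the exon for the DNA-binding domain had been removed by germ line recombination with EIIa-Cre, so that the allele was present in all cells of the pup and not only in a single lineage. The pups received no treatment that the labels name.

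Mast cells are long-lived immune cells of connective tissue and mucosa that mature from blood-borne progenitors, and their granules hold proteases bound to heparin together with histamine. As a class, chymases cut proteins after aromatic residues and tryptases after basic residues, though single members can differ from their class. The carboxypeptidase removes single residues from the ends that chymase leaves. In the mouse, Cma1, Mcpt4, Tpsb2 and Cpa3 mark mast cells of connective tissue, whereas Mcpt1 and Mcpt2 mark mast cells of the mucosa. The chymase genes lie side by side with granzyme genes on chromosome 14, the tryptase genes on chromosome 17 and Cpa3 apart from both on chromosome 3. RefSeq annotated Tpsab1 as a transcribed pseudogene in the C57BL/6J reference, and the labels do not give which strain's allele each pup carried.

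Upstream sequences were found in the RefSeq promoter table (GRCm38.p6) for 5 of the 9 members, Cma1, Mcpt1, Mcpt4, Tpsg1 and Cpa3. The 250 bases before the annotated start of 4 of these are printed because they set Mcpt1, a chymase whose signal lay at the floor of the arrays, beside Mcpt4, Cma1 and Cpa3, whose signals were higher in Foxf1+/- lungs. Capitals mark GATAA or its reverse complement TTATC, the core of the sites that GATA factors of the mast cell lineage recognize.
Cma1 (chr14:55944676-55944925, minus strand): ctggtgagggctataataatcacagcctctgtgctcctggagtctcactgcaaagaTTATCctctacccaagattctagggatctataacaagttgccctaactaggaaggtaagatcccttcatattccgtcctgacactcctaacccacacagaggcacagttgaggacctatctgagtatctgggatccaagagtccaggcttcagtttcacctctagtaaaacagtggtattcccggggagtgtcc
Mcpt1 (chr14:56017714-56017963, plus strand): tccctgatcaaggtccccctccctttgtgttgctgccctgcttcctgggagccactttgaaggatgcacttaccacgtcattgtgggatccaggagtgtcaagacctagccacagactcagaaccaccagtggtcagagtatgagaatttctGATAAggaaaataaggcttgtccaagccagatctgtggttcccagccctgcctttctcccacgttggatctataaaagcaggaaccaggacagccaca
Mcpt4 (chr14:56062311-56062560, minus strand): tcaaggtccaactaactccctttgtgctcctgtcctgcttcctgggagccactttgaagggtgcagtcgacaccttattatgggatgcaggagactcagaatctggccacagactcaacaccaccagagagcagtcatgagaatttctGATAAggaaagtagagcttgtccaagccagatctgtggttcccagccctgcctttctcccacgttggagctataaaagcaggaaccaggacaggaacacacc
Cpa3 (chr3:20242182-20242431, minus strand): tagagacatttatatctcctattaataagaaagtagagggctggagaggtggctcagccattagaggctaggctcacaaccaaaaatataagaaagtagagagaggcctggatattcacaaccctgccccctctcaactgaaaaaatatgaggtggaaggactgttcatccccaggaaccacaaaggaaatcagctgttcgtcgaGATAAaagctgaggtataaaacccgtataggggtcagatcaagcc
The Mcpt1 and Mcpt4 sequences were identical at 209 of 242 aligned bases (86.4%), gaps left out, and the other 5 pairs at 55.1% to 67.5%. Each of the 4 sequences held 1 GATAA match, 98 bases before the start in Mcpt1, 102 in Mcpt4, 45 in Cpa3 and, on the opposite strand, 194 in Cma1. TATAAA lay 28 bases before the start in Mcpt1, 32 in Mcpt4 and 31 in Cpa3, where it was also found on the opposite strand 242 bases before the start. Among all 32851 upstream sequences of this length, 22.6% held GATAA on either strand and 12.4% held a TATAAA match. The forkhead core TAAACA (12% of all sequences) and the E-box CATGTG of the kind MITF binds (12.3%) were searched on both strands and were not found in these windows. No match of one motif overlapped a match of another.

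Each signal is given on the log2 scale after background correction and quantile normalization, on which the 25th percentile of all probe means lay at 6.01. Values near 6 lie at the floor of the arrays. The arrays fell by their raw brightness into experiment A (2 wildtype and 4 Foxf1+/- arrays, raw medians of 72.8 to 89.3) and experiment B (4 and 2 arrays, 57.3 to 62.6). The study ran its arrays in separate experiments without labels for them, so this split was inferred from the signal, and it entered the fit as a term. Each difference below is the Foxf1+/- level minus the wildtype level ± SE. Its p was adjusted by limma over the 33947 probes that passed a filter on dim probes. Foxf1 itself stood at -0.999 ± 0.13 (adjusted p = 0.00224). The lungs carried lung markers throughout, as the surfactant gene Sftpc (13.95 ± 0.22 in wildtype and 13.57 ± 0.42 in Foxf1+/- lungs, SD, n = 6 each) and the airway gene Scgb1a1 (14.43 ± 0.20 and 14.38 ± 0.16) were near the top of the range in both genotypes. Of 12 lung markers tested, 0 were higher and 1 lower in Foxf1+/- lungs, which was Cldn5 (-1.05 ± 0.11, adjusted p = 3.79e-04). Over all genes tested 1.82% were higher and 1.79% lower. Marker signal of tissues outside the lung was uneven between arrays. In wildtype replicate 5 the summed signal of 11 thymus and T cell markers (7138) stood above the range of the other arrays (2152 to 3684), as did that of 12 squamous and oesophagus markers (28105 against 1975 to 8564). Skeletal muscle and tracheal cartilage markers were instead highest in Foxf1+/- replicate 4 (17972 and 1512).

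The connective tissue chymases, the tryptases and the carboxypeptidase were higher in every Foxf1+/- lung than in any wildtype lung. Of the 6 members that passed the filter, each stood for by its brightest probe, 6 were higher and 0 lower in Foxf1+/- lungs, where 1.82% of all 15653 genes tested were higher and 1.79% lower. Their median difference was 2.48, against -0.01 over all genes. A member that passed the filter only through its level in Foxf1+/- lungs would have had to differ, but the wildtype means of all 6 (6.73 to 8.15) lay above the filter limit too. In whole lung, more mast cells and more protease RNA per mast cell cannot be told apart.

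**Figure D1:**
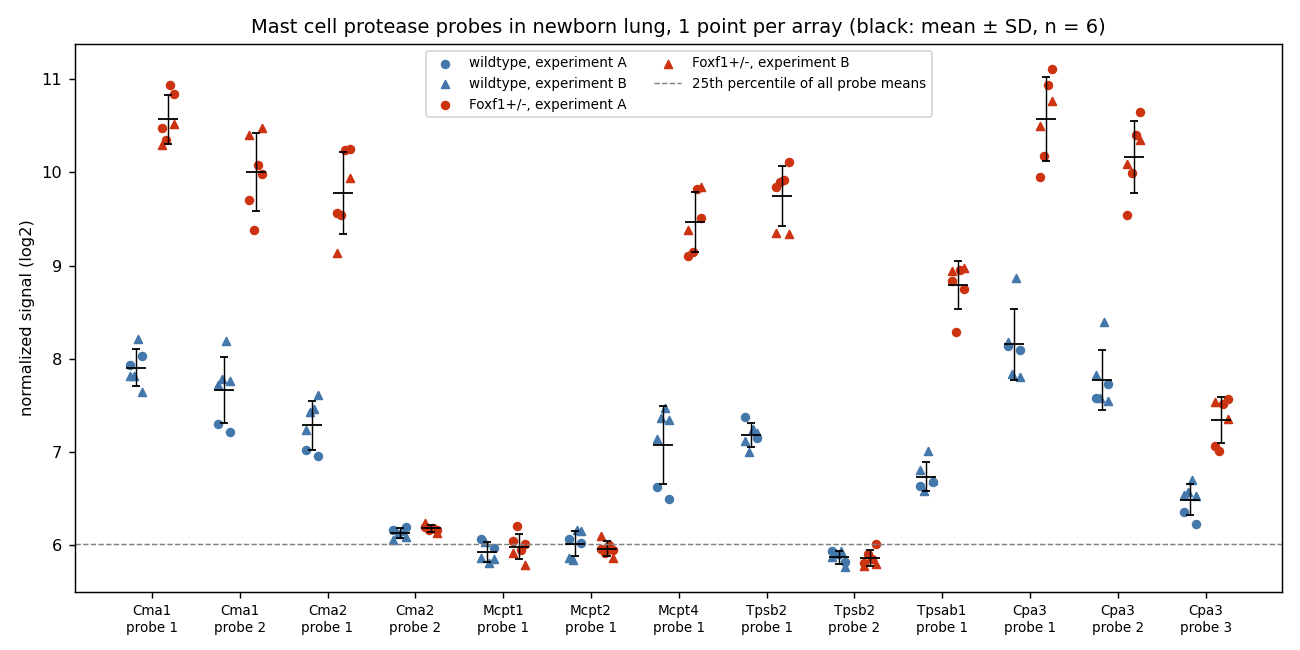
Normalized signal (log2) of the 13 protease probes in 6 wildtype (blue) and 6 Foxf1+/- (red) lungs, 1 point per array, with circles for experiment A and triangles for experiment B. Black marks give the mean ± SD, and the dashed line is the 25th percentile of all probe means. 9 probes separate the genotypes without overlap, and Cma2 probe 2, Mcpt1, Mcpt2 and Tpsb2 probe 2 lie near the floor in both.

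Cma1, the chymase of connective tissue mast cells, had the largest rise of any probe tested. On its brighter probe (ILMN_2997068) the wildtype lungs ran from 7.64 over a median of 7.87 to 8.21, and the Foxf1+/- lungs from 10.30 over 10.50 to 10.93. Before normalization these were raw intensities of 137 to 289 in wildtype and 984 to 3126 in Foxf1+/- lungs. The gap between the highest wildtype and the lowest Foxf1+/- lung was 2.09, wider than the range within either genotype. The difference was 2.61 ± 0.12, a signal 6.08-fold that of wildtype (95% interval 5.05 to 7.33, adjusted p = 6.66e-07). The other Cma1 probe (ILMN_1225727) gave 2.55 ± 0.12 (adjusted p = 6.66e-07), with no overlap between its wildtype (7.21 to 8.19) and Foxf1+/- values (9.38 to 10.47).

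Mcpt4, the mouse chymase closest in activity to the human enzyme, was measured by 1 probe. Its wildtype values ran from 6.49 over 7.24 to 7.47 and its Foxf1+/- values from 9.11 over 9.45 to 9.85. The difference of 2.56 ± 0.15 was 5.91-fold (adjusted p = 4.98e-06). Among the wildtype lungs the 2 arrays of experiment A were the lowest (6.63 and 6.49), and the 4 of experiment B lay at 7.14 to 7.47.

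Cma2, a further chymase gene next to Cma1, rose on its brighter probe (ILMN_1248718). It stood at 6.96 to 7.61 in wildtype lungs with a median of 7.33 and at 9.14 to 10.25 in Foxf1+/- lungs with a median of 9.75. The difference was 2.51 ± 0.20, or 5.69-fold (adjusted p = 4.98e-05). Its other probe (ILMN_1221956) lay near the floor in both genotypes and gave 0.04 ± 0.04 (adjusted p = 0.741), with an interval of -0.06 to 0.14. With the mean of both probes standing for the gene, its difference was 1.27 (adjusted p = 3.05e-05).

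Tpsb2, a tryptase stored with heparin in the granule, had the smallest p of all probes tested. The wildtype lungs ran from 6.998 over 7.18 to 7.38 and the Foxf1+/- lungs from 9.33 over 9.87 to 10.11 on probe ILMN_3161036. The spread within wildtype was narrow (SD 0.13, n = 6), and the difference was 2.44 ± 0.10, or 5.44-fold (adjusted p = 1.74e-07). A second annotated probe (ILMN_2668986) stood below the filter limit, at 5.76 to 5.93 in wildtype and 5.77 to 6.00 in Foxf1+/- lungs. Tpsab1, the neighbouring tryptase, ran from 6.58 over 6.68 to 7.01 in wildtype and from 8.29 over 8.89 to 8.97 in Foxf1+/- lungs. Its difference was 2.12 ± 0.11, or 4.35-fold (adjusted p = 1.74e-06).

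Cpa3, the mast cell carboxypeptidase, was read by 3 probes. The brightest (ILMN_2991799) gave 7.80 over 8.12 to 8.86 in wildtype and 9.95 over 10.63 to 11.11 in Foxf1+/- lungs. The highest wildtype value was that of replicate 5, and the next stood at 8.18. The difference was 2.44 ± 0.23, or 5.45-fold (adjusted p = 2.54e-04), and the second probe (ILMN_2609590) gave 2.44 ± 0.20 (adjusted p = 4.98e-05). The dimmest (ILMN_1246690) gave 0.93 ± 0.10 (adjusted p = 9.21e-04), with wildtype values of 6.22 to 6.69 and Foxf1+/- values of 7.01 to 7.56. The mean over the 3 probes was 1.94 higher (adjusted p = 8.00e-05).

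The mucosal chymases Mcpt1 and Mcpt2 did not stand above the floor in either genotype. Mcpt1 lay at 5.80 to 6.06 in wildtype and 5.79 to 6.20 in Foxf1+/- lungs, and Mcpt2 at 5.84 to 6.16 and 5.86 to 6.09. Both were below the filter limit. In a fit of all 45263 intact probes they differed by 0.00 ± 0.06 (interval -0.13 to 0.13, adjusted p = 0.997) and -0.06 ± 0.07 (interval -0.21 to 0.09, adjusted p = 0.806). A change too small to lift either signal off the floor was not detectable with these arrays.

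Seen by probe, 9 of the 10 member probes that passed the filter were higher in Foxf1+/- lungs, where 1.74% of all probes were (2.97% were called in either direction). The same 9 separated the genotypes without overlap, both over all 12 arrays (1.04% of all probes) and within each experiment (3.01%). 8 of them held ranks 1 to 8 among all 33947 probes by size of the rise, and no other probe rose by more than 2 on the log2 scale (0.0236% of all probes). An exact permutation of the genotypes within the experiments (225 arrangements, both sides) gave p = 0.00444 for each of the 9, the smallest it can give. For probes already separated within both experiments this value largely restates the separation and adds no further support. The same permutation gave p = 0.191 for the dimmer Cma2 probe (ILMN_1221956), the tested member probe that overlapped.

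**Figure D2:**
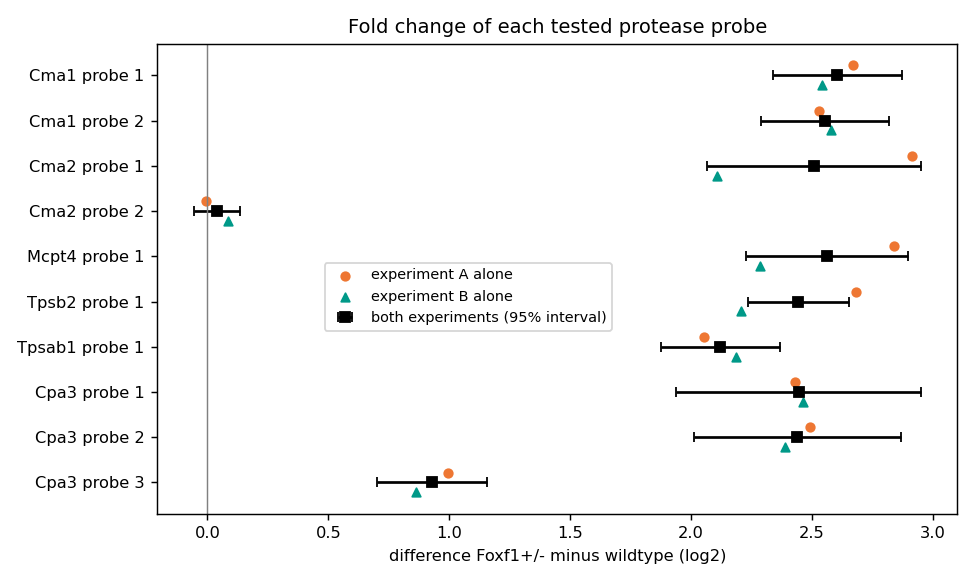
Difference Foxf1+/- minus wildtype (log2) of the 10 protease probes that passed the filter. Squares with bars give the fit over both experiments with its 95% interval, circles experiment A alone and triangles experiment B alone. 8 probes lie between 2.12 and 2.61, the dimmest Cpa3 probe at 0.93 and Cma2 probe 2 at 0.04.

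Where a gene had several bright probes, these followed each other closely from lung to lung. With genotype and experiment taken out, the pair of Cma1 probes correlated at r = 0.90 and the 2 brighter Cpa3 probes at r = 0.97 over the 12 arrays, which share the same RNA. The dimmest Cpa3 probe followed the other Cpa3 probes at r = 0.76 and 0.71, although its difference was smaller. The 2 probes annotated as Cma2 did not move together (r = -0.58). The order of the members by size of the difference depended on the background setting. With an offset of 16 in place of 50, which damps dim signals less, Mcpt4 led at 3.00, followed by Cma2 (2.84), Cma1 (2.80), Tpsb2 (2.77), Cpa3 (2.61) and Tpsab1 (2.59). The 6 intervals of the main fit overlapped in part, and no difference in size between members was tested.

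The rise was found in both experiments. Cma1 differed by 2.67 in experiment A and 2.54 in B, Tpsab1 by 2.06 and 2.18, Cpa3 by 2.43 and 2.46, Mcpt4 by 2.84 and 2.28, Cma2 by 2.91 and 2.11 and Tpsb2 by 2.68 and 2.21. Limma called all 6 in B alone (adjusted p up to 0.0356) and 5 in A alone (adjusted p up to 0.0359). The call of Cpa3 was lost in A (adjusted p = 0.101), where its Foxf1+/- lungs ran from 9.95 to 11.11. Limma's test of whether the difference itself changed between the experiments called 0 probes, and 1142 (3.36%) had a p below 0.05 before adjustment. Tpsb2 (-0.48 ± 0.14, unadjusted p = 0.00581, adjusted p = 0.999) and Cma2 (-0.81 ± 0.35, unadjusted p = 0.0415, adjusted p = 0.999) were among these.

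The Foxf1+/- lungs also varied among themselves. Set against the wildtype mean of their own experiment, the 6 lungs stood 2.37 to 2.95 higher for Cma1 and 2.20 to 2.85 for Tpsb2. The span was wider for Cma2 (1.70 to 3.26), Mcpt4 (2.05 to 3.27), Cpa3 (1.83 to 3.00) and Tpsab1 (1.63 to 2.30). Replicates 3 and 4 were the highest of the genotype in the mean over the 6 members (10.14 and 10.10), and replicates 1, 2 and 5 the lowest (9.63, 9.57 and 9.60). Against the wildtype of its experiment, replicate 2 was lowest for Cma1 and Tpsab1, replicate 1 for Cpa3, replicate 5 for Cma2 and Mcpt4 and replicate 6 for Tpsb2. Among wildtype lungs the mean was 7.71 in replicate 5 and 7.23 to 7.38 in the other 5.

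**Figure D3:**
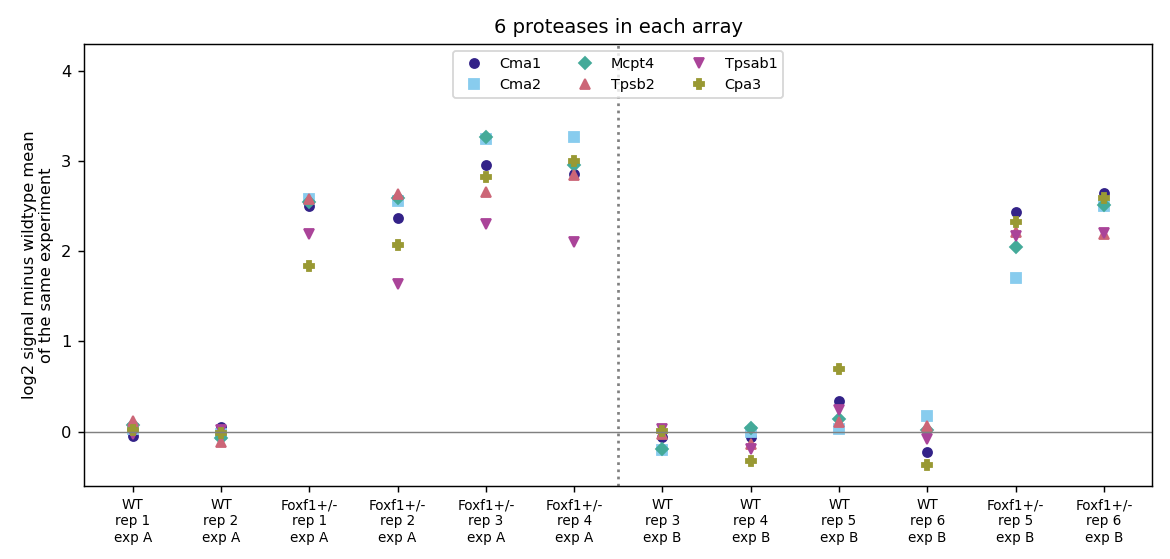
Log2 signal of the 6 proteases in each of the 12 arrays minus the wildtype mean of the same experiment, with experiment A left and B right of the dotted line. Wildtype arrays scatter around 0 with Cpa3 highest in replicate 5, and the Foxf1+/- arrays lie between 1.63 (Tpsab1, replicate 2) and 3.27 (Mcpt4, replicate 3).

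With genotype and experiment taken out, the 15 pairs of members had a median r of 0.58 over the 12 arrays. The closest pairs were Cma2 with Mcpt4 (r = 0.93) and Cma1 with Cpa3 (r = 0.90), and the loosest Tpsb2 with Tpsab1 (r = 0.03). Probe sequences were not used here, and how far a chymase probe takes up signal of a near-identical neighbour was not tested, so that the values of Cma2, Mcpt4 and Cma1 may not be independent of each other. The same holds for Tpsb2 and Tpsab1.

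Both clusters held genes that rose and protease genes near the floor. Of 15 protease genes with a probe in the chymase cluster, from Cma1 to the granzyme Gzmb, the fit of all intact probes called 3, which were Cma1, Cma2 and Mcpt4. Over all 45263 intact probes that fit called 898, of which 527 were higher in Foxf1+/- lungs. Mcpt-ps1, between Cma1 and Cma2, had no probe. Gm5801, a transcribed pseudogene that is no protease, follows Cma2 and was bright in both genotypes (11.90 ± 0.25 in wildtype and 11.84 ± 0.27 in Foxf1+/- lungs, SD, n = 6). Mcpt1, Mcpt2 and Mcpt9 lie between it and Mcpt4 in the RefSeq order, and all 3 were near the floor (Mcpt9 at -0.01 ± 0.05, adjusted p = 0.974). On the other side of Mcpt4, the basophil protease Mcpt8 (0.06 ± 0.06, adjusted p = 0.750), the neutrophil cathepsin Ctsg (0.21 ± 0.07, adjusted p = 0.153) and the granzymes did not pass either, and the 12 genes not called lay between -0.08 and 0.21. In the tryptase cluster 3 of 5 genes with a probe were called in that fit. Besides Tpsab1 and Tpsb2 this was Prss34, a tryptase of mast cells and basophils, at 6.39 to 6.61 in wildtype and 7.22 to 8.20 in Foxf1+/- lungs (1.23 ± 0.15, adjusted p = 0.00169 among filtered probes). Prss28 and Prss29, which lie between Prss34 and Tpsab1, were near the floor (0.04 ± 0.04, adjusted p = 0.742, and -0.00 ± 0.05, adjusted p = 0.999).

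**Figure D4:**
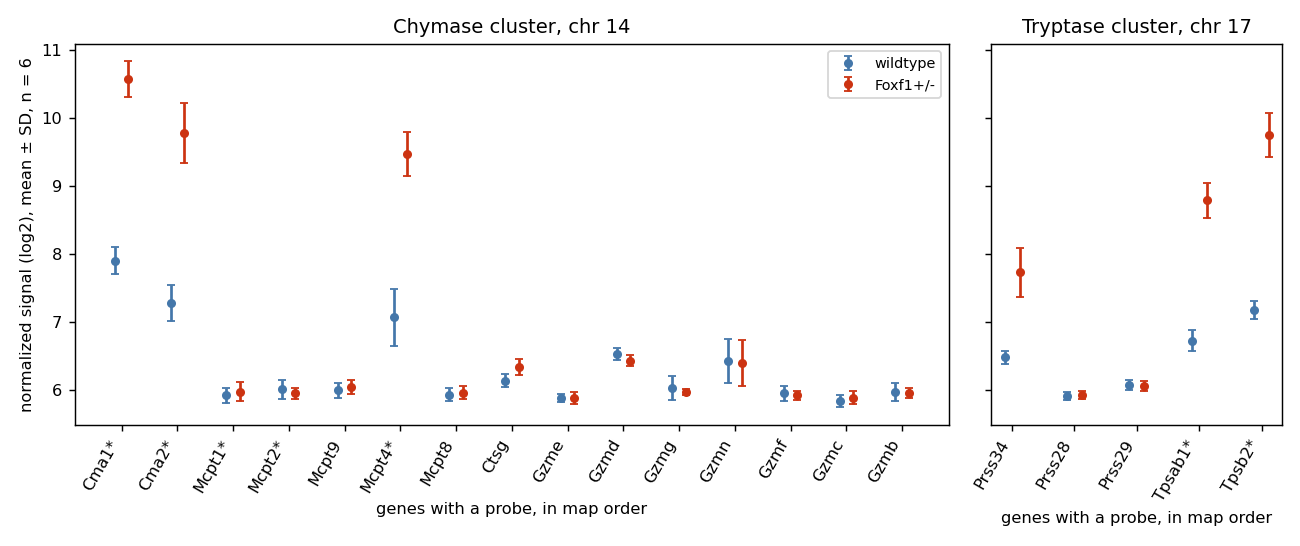
Normalized signal (log2, mean ± SD, n = 6 arrays each) of the protease genes of the chymase and tryptase clusters in wildtype (blue) and Foxf1+/- (red) lungs, in map order, with members marked by an asterisk. Cma1, Cma2, Mcpt4, Prss34, Tpsab1 and Tpsb2 differ between the genotypes, and the protease genes plotted between them lie near 6 in both. Gm5801, which is no protease, and genes without a probe are not plotted. Heights of different genes are different probes and are not compared.

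Of 12 other carboxypeptidases tested, 1 was higher and 0 lower in Foxf1+/- lungs, where 1.82% of all genes were higher and 1.79% lower. By limma 3 of the 12 had an unadjusted p under 0.05, against 2966 of all 15653 genes tested. The called gene was Cpz, a secreted carboxypeptidase of the matrix (0.35 ± 0.09, adjusted p = 0.0485), with a median of -0.00 over the list. The pancreatic enzyme Cpa1 stood at 0.32 ± 0.15 (adjusted p = 0.318) and the membrane-bound Cpm of alveolar epithelium at -0.39 ± 0.10 (adjusted p = 0.0663).

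Most other mast cell genes tested were not called, and a part of them lay near the floor. Of 26 mast cell genes other than proteases, 3 were higher and 1 lower, with a median of -0.04. Over all genes tested 1.82% were higher and 1.79% lower. 8 of the 26 had an unadjusted p under 0.05, against 2966 of all 15653 genes tested. Some were bright in whole lung, such as Cd63 (mean 13.25), Fcer1g (11.19) and Alox5ap (11.01). Which cells gave that signal was not tested, so the list does not show how mast cells themselves changed. Mrgprb2, the receptor through which basic peptides activate connective tissue mast cells, rose by 1.505 ± 0.11 in the fit with the experiment term (adjusted p = 3.02e-05). Its plain means, without that term, were 6.66 ± 0.19 in wildtype and 8.06 ± 0.29 in Foxf1+/- lungs (SD, n = 6). Tph1, which makes serotonin, rose by 0.81 ± 0.14 (adjusted p = 0.00864), and the IgE receptor subunit Fcer1a by 0.56 ± 0.09 (adjusted p = 0.00605). Kit, the receptor for stem cell factor, which endothelial cells of the lung carry as well, fell by 0.99 ± 0.10 on the log2 scale (adjusted p = 3.06e-04). Hdc, which makes histamine, was bright in both genotypes (12.13 ± 0.21 and 12.18 ± 0.37) and did not pass (0.20 ± 0.12, adjusted p = 0.448), nor did the transcription factor Gata2 (-0.11 ± 0.12, adjusted p = 0.719). The probes of Ms4a2, a further IgE receptor subunit, and of Mitf lay near the floor. Means were low as well for Ptger3 (6.16), Lat (6.19), Gata1 (6.22) and Cyp11a1 (6.27). Enpp3, Mrgprb1, Rgs13, Slc18a2 and Syk stood below the filter limit and were not among the 26. A change too small to lift such signals off the floor was not detectable.

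Genes that load and process the granule did not pass. Of 14 tested, 0 were higher and 0 lower by limma, among them the proteoglycan core Srgn that binds the proteases (0.36 ± 0.11, adjusted p = 0.103), the heparin sulfotransferase Ndst2 (0.18 ± 0.06, adjusted p = 0.187) and cathepsin C, Ctsc, which activates chymases (-0.21 ± 0.08, adjusted p = 0.173). 6 of the 14, these 3 among them, had an unadjusted p under 0.05, as did 2966 of all 15653 genes tested. Growth and recruitment signals for mast cells did not pass either, with 0 of 17 called by limma in each direction, 3 at an unadjusted p under 0.05 and a median of -0.11. Stem cell factor, Kitl, stood at -0.11 ± 0.11 (adjusted p = 0.714) and the alarmin Il33 at 0.17 ± 0.16 (adjusted p = 0.672).

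Inhibitors and substrates of these proteases changed in part. Among 15 inhibitor genes 1 was higher and 0 lower, the acute phase serpin Serpina3n (1.49 ± 0.27, adjusted p = 0.0120), a relative of the human chymase inhibitor. By limma 6 of the 15 had an unadjusted p under 0.05. Over all 15653 genes tested 2966 had one, 1.82% were called higher and 1.79% lower. Serpina1e, of the alpha-1-antitrypsin family, had a difference of similar size with a wide error (1.39 ± 0.43, adjusted p = 0.117). So did Serpina1b (1.37 ± 0.46, adjusted p = 0.149) and Serpina1d (1.32 ± 0.45, adjusted p = 0.155). Serpina1c (0.51 ± 0.26, adjusted p = 0.363) and Serpina1a (0.10 ± 0.08, adjusted p = 0.574) differed less. Latexin, Lxn, an inhibitor of carboxypeptidases, stood at -0.08 ± 0.10 (adjusted p = 0.741). Among 15 substrates, receptors and partner genes 2 were higher and 1 lower, and 7 had an unadjusted p under 0.05 by limma. Edn1 (0.91 ± 0.31, adjusted p = 0.160), Kng1 (0.91 ± 0.32, adjusted p = 0.166) and Mmp9 (-0.44 ± 0.12, adjusted p = 0.0690) were among the 7 and did not pass. The matrix glycoprotein Thbs1 (1.08 ± 0.19, adjusted p = 0.00928) and the metalloproteinase inhibitor Timp1 (0.56 ± 0.12, adjusted p = 0.0309) rose, and Ace, which like chymase makes angiotensin II, fell by 0.68 ± 0.09 on the log2 scale (adjusted p = 0.00262). Angiotensinogen, Agt, the precursor of the angiotensin that chymase cuts, stood at -0.10 ± 0.20 (adjusted p = 0.858) and fibronectin, Fn1, at 0.41 ± 0.17 (adjusted p = 0.253).

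**Figure D5:**
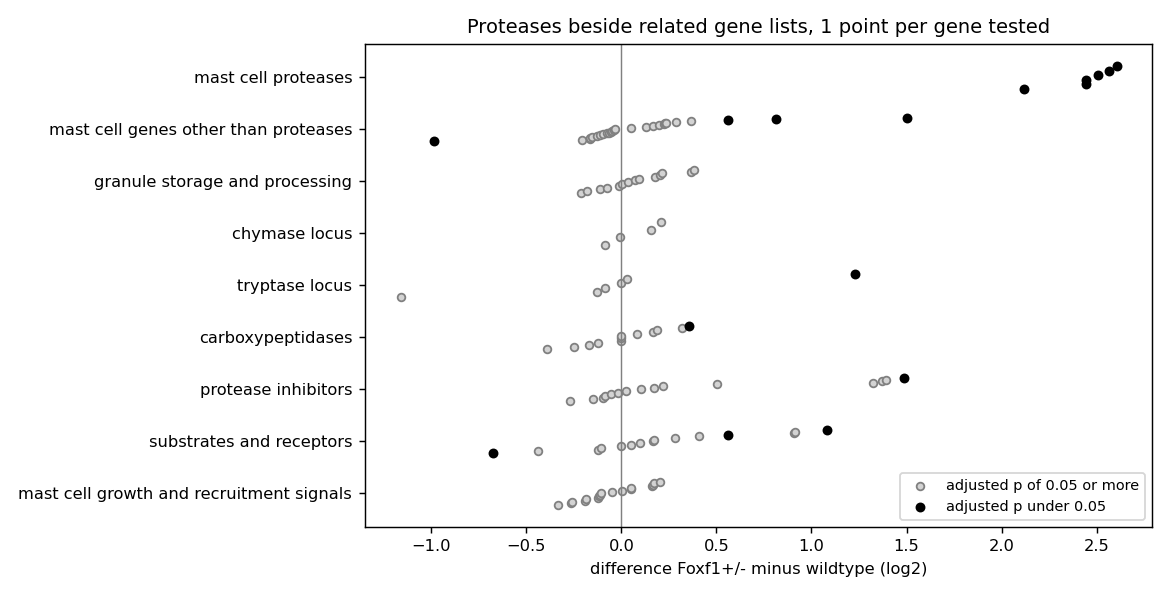
Difference Foxf1+/- minus wildtype (log2) of every gene tested in the protease list and 8 related lists, 1 point per gene, with filled points at an adjusted p under 0.05. The 6 proteases lie from 2.12 to 2.61, and the gene of the other lists with the largest rise is Mrgprb2 at 1.505.

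The likeness of other genes to the proteases depended on whether the genotype difference was kept. Likeness was first the Pearson r over the 12 arrays with the mean of the 6 members, with the mean of each experiment taken out, and it rests largely on the shared difference between the genotypes. The mast cell receptor Mrgprb2 came first (r = 0.98), followed by Bmp15 and Tmem255a (0.96 each), Il20rb and Prss34 (0.96 each), Syn2 (0.95), Rps6ka3 (0.94) and Clip4 (0.94). All 8 were higher in Foxf1+/- lungs, Tmem255a by 1.48 ± 0.15 (adjusted p = 3.98e-04). With the genotype taken out too, their r fell to values between 0.22 (Syn2) and 0.75 (Prss34), with 0.60 for Mrgprb2. Ranked in that way the list was led by Prm1, Timm9, Nudcd2 and Hspa13 (r = 0.93, 0.93, 0.92 and 0.92), named after their values were seen, and none of them passed the test between the genotypes.

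Among 7 markers of basophils, which share some of these proteases, 2 were higher (Prss34 and Cd200r3) and 0 lower. Over all genes tested 1.82% were higher and 1.79% lower. The summed linear signal of the 8 markers ran from 1793 to 2157 in wildtype and from 1801 to 2188 in Foxf1+/- lungs. This sum is weighted to its brightest probes, Il18r1 (mean log2 signal 9.51), Il3ra (8.69) and Itga2b (8.23). A change in Prss34 (7.11) or Cd200r3 (6.35) moves it little, so no conclusion on basophils is drawn from it. Mcpt8, the defining basophil protease, lay near the floor in both genotypes. Of the markers of other tissues, limma called 0 for thymus and T cells (10 tested) and 0 for skeletal muscle (10). It called 0 for squamous epithelium and oesophagus (10) and 0 for tracheal cartilage (8). In that order, these lists had 1, 0, 0 and 3 genes at an unadjusted p under 0.05, against 2966 of all 15653 genes. Their levels leaned lower in Foxf1+/- lungs for squamous markers (median -0.74, 1 of 10 above 0), skeletal muscle (median -0.76, 2 of 10 above 0) and thymus (median -0.21, 1 of 10 above 0), against a median of -0.01 over all genes. The squamous keratin Krt13 had the lowest difference of all genes tested with a wide error (-2.55 ± 1.31, adjusted p = 0.369). The part of such tissue in the protease levels was not tested. The summed skeletal muscle signal ran from 1530 to 15900 in wildtype and from 1490 to 17972 in Foxf1+/- lungs. With the summed level of thymus, skeletal muscle, squamous or cartilage markers as a covariate, settings chosen after seeing the data, limma called all 6 members higher. These sums are weighted to their brightest probes, for thymus that of Cd8b1 (mean 10.99), and do not measure how much of such tissue a lung held. Without wildtype replicate 5 the difference was 2.66 for Cma1 and 2.55 for Cpa3.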

How the data were processed

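RNA of 12 whole lungs (6 Foxf1+/-, 6 wildtype) had been hybridised to Illumina MouseWG-6 v2.0 arrays, 1 lung per array. The authors deposited raw probe intensities without normalization, and log2 values that they had made with lumi (variance stabilization, robust spline) and ComBat. Neither came with detection p-values. Array columns were matched to samples by their labels.

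Raw intensities were background corrected (normexp, offset 50), log2 transformed and quantile normalized. 18 rows with damaged cells were left out, and probes above the 25th percentile of mean signal were tested with limma 3.58.1 (R 4.3.3) for genotype with the inferred array experiment as covariate, and p-values were Benjamini-Hochberg adjusted over all probes tested. A call is an adjusted p under 0.05. All member probes are reported, genes being stood for by their brightest tested probe; other genes are named from fixed lists or by likeness to the members. The number of arrays limits the precision. Each limma p sets the genotype difference against the spread between lungs that remains within genotype and experiment. The sample titles name no litter, so lungs of the same litter could not be taken into account. The script was tested on simulated data. The members and lists were chosen with earlier results of these data known. The alternatives were other background corrections, scalings, filters, covariates and blocks, the deposited log2 values, and each array left out.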

Additional observations from a re-analysis of the deposited data

Results flagged for a closer look

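Among 26 groups of 6 arrays, each the values of 1 protease probe in 1 genotype, 3 held an array set apart from the rest at the 95% level of Dixon's ratio, the gap to the nearest array over the range of the group. In independent groups, each drawn from a single population, chance alone sets apart about 1 group in 20. These groups pool both experiments and share the same arrays, so that share is only a rough guide. In Foxf1+/- lungs this was Tpsab1 in replicate 2, at 8.29 with the nearest array at 8.75 (ratio 0.683). In wildtype lungs it was replicate 5 on both brighter Cpa3 probes, at 8.86 with the nearest at 8.18 (ratio 0.65) and at 8.39 with the nearest at 7.82 (ratio 0.668). These 2 probes read the same RNA. Wildtype replicate 5 also had the highest summed thymus and squamous marker signals, and their part in its Cpa3 level was not tested.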

How the results depend on the processing

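All 6 members were called in each of the settings tried, leaving out each array included, with 1 exception: within experiment A, 5 were called, and Cpa3 (2.43) had an adjusted p of 0.101. No direction changed. The number of probes called over the whole array (1007) was less stable. It was 501 without the array experiment in the fit, 10 within experiment A and 56 within B, which hold fewer arrays, 1861 with the methods' t-test on the deposited values after Benjamini-Hochberg adjustment, and 1965 and 1992 with the skeletal muscle or squamous markers as a covariate, both chosen after seeing the data. Leaving out 1 array gave 401 to 1112, the lowest without Foxf1+/- replicate 6, with 431 without wildtype replicate 1 and 446 without Foxf1+/- replicate 5. The cause was not tested. With the replicate number as a block 149 probes and all 6 members were called (Cma1 at 2.46, Cpa3 at an adjusted p of 0.0188). Same-numbered lungs did not deviate together (r from -0.39 to -0.05), so the numbers were not taken to pair them. For replicates 3 and 4 the same-numbered lungs lay in different experiments. Which lungs came from the same litter is not known from these numbers. Sizes moved with the handling of dim signal: Tpsab1 ran from 1.76 on the deposited values to 2.59 with an offset of 16, and Cma2 stood at 1.27 as the mean of its probes.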
